A study of Homo sapiens with 20 samples.

Results

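Axon guidance ligands and receptors are the secreted and membrane-bound proteins by which growing nerve fibres and migrating neural cells read their surroundings. The genes described here are the vertebrate semaphorins of classes 3 to 7, the plexins, neuropilins, Eph receptors, ephrins, Slits, Robos and netrins, together with the netrin receptors DCC, NEO1 and UNC5A to UNC5D. They were chosen by gene name among protein-coding genes. The rule gave 70 genes, of which 69 had annotated transcripts in the data and 67 were tested among 27697 genes, 17351 of them mRNAs. EFNB2 had no matching transcript and was not analysed here.

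The RNA came from NGP, an established human neuroblastoma cell line, grown in multiwell culture flasks. The 10 vehicle samples received ethanol and the 10 nutlin samples received nutlin-3 at 8 µM as a racemic mixture, and the groups shared the line and the growth conditions. Nutlin-3 occupies the p53-binding pocket of MDM2, a ubiquitin ligase that restrains p53. The length of the treatment is not given in the sources used here. All values come from 1 cell line, and bulk RNA cannot tell fewer cells of a kind from less RNA per cell.

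Guidance cues work in ligand and receptor pairs. Semaphorins bind plexins, with neuropilins as co-receptors for most secreted class 3 semaphorins, and plexins then act on small GTPases. Ephrins are membrane-bound ligands of the Eph receptor tyrosine kinases and can signal back into the cell that carries them. Slits bind Robos and mostly repel, whereas netrins attract through DCC and repel through UNC5 receptors. Neuroblastoma arises from the sympathoadrenal branch of the neural crest, whose migrating cells use these same cues.

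Each sample held 14455477 to 19532971 estimated counts in vehicle and 15078052 to 17442896 in nutlin. The p53 target MDM2 ranged from 199 to 290 CPM (counts scaled to library size) in vehicle and from 4797 to 6005 in nutlin, and CDKN1A, a p53 target that blocks the cell cycle, from 18.8 to 54.9 and from 1318 to 1833, so all samples followed their labels. The 10 adrenergic neuroblastoma markers summed to 2912 to 3346 TPM (a level scaled to transcript length and library) in vehicle and 3490 to 4479 in nutlin. Of these 10 markers 4 rose, 4 fell and 2 did not pass the test. The mesenchymal or Schwann-like list summed to 8.57 to 12.1 TPM in vehicle and 22.7 to 28.5 in nutlin, with FOSL1, COL1A1 and PRRX1 higher, 2 genes lower and 5 of 9 genes under 1 TPM in both groups. The immune list moved from 0.777 to 2.15 TPM up to 3.28 to 6.80, with CD68 higher and CD3E at 0, and the endothelial list reached at most 1.20 TPM. Their part in the results below was not tested.

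Nutlin raised more of the guidance genes than it lowered. At a false discovery rate of 5% (edgeR quasi-likelihood F-test, Benjamini-Hochberg over all 27697 genes), 36 of the 67 tested genes rose, 16 fell and 15 did not pass the test. The share that rose was 53.7%, where 32.4% of all mRNAs rose, and the share that fell was 23.9%, where 38.5% of all mRNAs fell. With at least a 2-fold change as well, 21 genes rose (31.3%, against 14.1% of mRNAs) and 3 fell (4.48%, against 7.67%). All 10 nutlin samples lay above all 10 vehicle samples for 19 genes (28.4%, against 14.5% of mRNAs) and below them for 9 genes (13.4%, against 25.6%). The median log2 fold change was 0.44 over the guidance genes and -0.01 over all mRNAs. Among the 52 genes that averaged 1 CPM or more, 27 rose and 16 fell, beside 31.4% and 50.6% of the mRNAs at that level.

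Ligands and receptors both took part. Of 33 tested ligands 17 rose, 7 fell and 9 did not pass, and of 34 tested receptors 19 rose, 9 fell and 6 did not pass. That was 51.5% and 55.9% up, beside 32.4% of all mRNAs, and 21.2% and 26.5% down, beside 38.5%. The class counts below are to be read against the same shares of mRNAs. On the TPM scale, which is per transcript length and as deposited, the summed level of the 35 receptors was 387 ± 36.2 (SD, n = 10) in vehicle and 634 ± 50.5 in nutlin. The sum of the 34 ligands was 227 ± 16.9 and 289 ± 13.7. Summed TPM of plexins and neuropilins was 205 ± 21.8 in vehicle and 398 ± 35.5 in nutlin, the widest gap in TPM among the 6 classes. PLXNB2 alone went from 23.9 ± 4.68 to 154 ± 15.1 TPM, which was most of this gap and of the gap of the receptors.

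**Figure D1:**
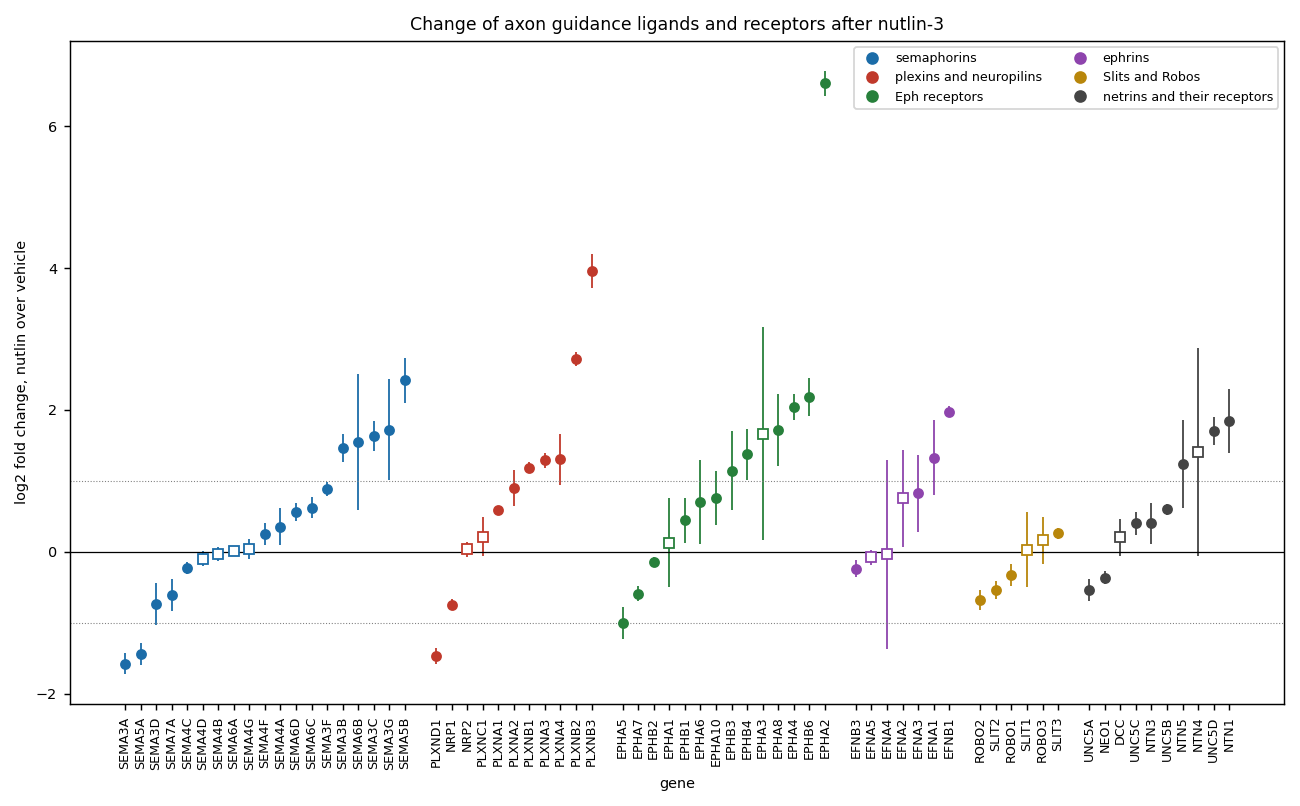
The log2 fold change (nutlin over vehicle) of each of the 67 tested genes is plotted by class, with bars of 95% intervals from the standard errors implied by the F statistic; filled circles passed 5% FDR, open squares did not, and dotted lines mark a 2-fold change. EPHA2 stands at 6.61, PLXNB3 at 3.96 and PLXNB2 at 2.72, and SEMA3A is lowest at -1.58.

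Eph receptors held the largest change of all guidance genes. Of the 14 genes, 9 rose, 3 fell and 2 did not pass, and in vehicle 11 of the 14 were under 1 TPM. EPHA2 (chr1:16124337-16156069, minus strand, GRCh38) encodes an ephrin-A receptor of epithelial and tumour cells. Its CPM was 0.266 at the lowest, 0.782 at the median and 1.45 at the highest in vehicle, and 81.4, 87.0 and 95.1 in nutlin. Every nutlin sample was far above every vehicle sample, and EPHA2 was close to silent without nutlin. EPHA2 thus rose by 6.61 on the log2 scale, 97.4-fold, with a standard error of 0.18 from the spread of the samples (adjusted p = 1.89e-30). With an offset for effective transcript length the change was 61.4-fold, and the direction was kept. In TPM, EPHA2 went from 0.418 ± 0.170 to 25.2 ± 2.42, and in nutlin EPHB2, the most abundant Eph receptor in vehicle, had 22.3 ± 1.82 TPM.

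EPHA4, which binds ephrins of both subclasses, and EPHB6, an Eph receptor whose kinase domain is inactive, also rose without overlap. EPHA4 had 5.36, 6.77 and 7.82 CPM (lowest, median, highest) in vehicle and 17.5, 28.4 and 32.6 in nutlin, a log2 fold change of 2.04 ± 0.094 (SE; adjusted p = 8.77e-18). With the length offset its change was 2.65-fold instead of 4.12-fold. EPHB6 had 0.568, 1.11 and 1.54 CPM in vehicle and 4.04, 5.12 and 5.77 in nutlin, a log2 fold change of 2.18 ± 0.13 (adjusted p = 7.92e-15). For EPHB6 the length offset gave 3.04-fold instead of 4.55-fold. EPHB4, EPHB3 and EPHA8 rose past 2-fold at low levels, with log2 fold changes of 1.37, 1.14 and 1.72, and only EPHB4 among these 3 had no overlap between groups.

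The Eph receptors that fell were EPHB2, EPHA7 and EPHA5. EPHA7 ranged from 22.1 to 27.7 CPM in vehicle and from 15.2 to 19.1 in nutlin, and EPHA5 from 2.59 to 4.83 and from 1.67 to 2.36, so that nutlin levels were 0.665 and 0.501 of vehicle levels, with no overlap for either gene. EPHB2, a receptor for ephrin-B ligands, had 113, 122 and 126 CPM in vehicle and 101, 107 and 126 in nutlin. The groups overlapped for EPHB2, and its log2 fold change of -0.14 (adjusted p = 0.00139) did not hold under 2 of the alternative settings.

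Among the ephrins EFNB1 rose most. Of 7 ephrin genes 3 rose, 1 fell and 3 did not pass, and 4 were under 1 TPM in vehicle. The shares of 42.9% up and 14.3% down rest on few genes, beside 32.4% and 38.5% of all mRNAs. Of the 3 ephrins at 1 CPM or more, 1 rose and 1 fell. EFNB1 (chrX:68829021-68842160, plus strand), a transmembrane ephrin, had 16.8, 18.2 and 20.4 CPM in vehicle and 69.0, 71.9 and 80.1 in nutlin. The groups lay far apart with little spread inside each, and the log2 fold change was 1.98 ± 0.042 (adjusted p = 4.70e-26). EFNA1 and EFNA3 rose by 1.33 and 0.83 on the log2 scale at no more than 1.59 CPM in any sample. EFNA3 shares 43.88% of its exon bases with the readthrough gene EFNA4-EFNA3, so its counts depend on how reads were divided between them.

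EFNA5, a lipid-anchored ephrin and the most abundant one in vehicle at 10.1 ± 1.97 TPM, had 27.9, 37.0 and 40.9 CPM in vehicle and 32.1, 34.9 and 38.0 in nutlin. Its log2 fold change was -0.07 (adjusted p = 0.245), and its sign changed under 3 of the alternative settings. EFNB3 fell by 0.24 on the log2 scale with overlapping groups (adjusted p = 0.00104).

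Plexins rose across the A and B subfamilies. Of the 11 plexins and neuropilins 7 rose, 2 fell and 2 did not pass, and 5 rose past 2-fold. The largest changes were in PLXNB3 and PLXNB2, both B-type plexins. PLXNB2 (chr22:50274979-50307646, minus strand) had 73.5, 87.8 and 102 CPM in vehicle and 521, 584 and 636 in nutlin. This was a log2 fold change of 2.72 ± 0.050, 6.58-fold (adjusted p = 2.27e-27). At 154 ± 15.1 TPM PLXNB2 was the most abundant of all guidance genes in nutlin, after 23.9 ± 4.68 TPM in vehicle.

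PLXNB3 (chrX:153764196-153779346, plus strand) had 0.734, 1.26 and 1.93 CPM in vehicle and 16.6, 20.0 and 24.8 in nutlin, a log2 fold change of 3.96 ± 0.12 (adjusted p = 4.18e-22). It shares 20.44% of its exon bases with SRPK3 on the same strand. PLXNB1 had 65.1, 72.3 and 77.7 CPM in vehicle and 150, 166 and 179 in nutlin, a log2 fold change of 1.18 ± 0.040 (adjusted p = 2.88e-21). With the length offset the log2 fold change of PLXNB1 was 0.96, just under 2-fold. All 3 B-type plexins thus had every nutlin sample above every vehicle sample.

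A-type plexins are the signalling partners of neuropilins. PLXNA3 had 23.1, 25.2 and 29.4 CPM in vehicle and 53.6, 62.9 and 73.3 in nutlin, a log2 fold change of 1.29 ± 0.057 (adjusted p = 2.40e-18). PLXNA1, PLXNA2 and PLXNA4 rose by 0.59, 0.90 and 1.30 on the log2 scale, and of these 3 only PLXNA1 had no overlap between groups. PLXNA2 and PLXNA4 were lower in vehicle replicates 4 to 7 and nutlin replicates 4 and 6 than in the rest of each group. PLXNA4 had at most 6.31 CPM in those vehicle samples and at least 10.9 in the other vehicle samples. In nutlin it had at most 15.3 and at least 22.8. Nutlin replicates 4 and 6 were also the lowest nutlin samples for several other guidance genes, EPHA4, UNC5D and PLXNB2 among them. EPHA4 had 17.5 and 21.8 CPM in them and at least 25.4 in the other nutlin samples. For others, UNC5A, ROBO2 and SEMA3A among them, replicates 4 and 6 were the highest nutlin samples. The cause of these splits was not tested. PLXND1 and NRP1 fell. PLXND1, a receptor for class 3 semaphorins in vessels and neurons, had 21.4, 24.4 and 26.3 CPM in vehicle and 7.33, 8.55 and 10.3 in nutlin, a log2 fold change of -1.47 ± 0.056 (adjusted p = 6.62e-20).

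NRP1, the neuropilin that binds SEMA3A and also vascular endothelial growth factor, had 144, 155 and 168 CPM in vehicle and 78.1, 94.9 and 99.8 in nutlin, a log2 fold change of -0.74 ± 0.040 (adjusted p = 4.06e-16). In vehicle it was the most abundant gene of its class, at 47.8 ± 5.03 TPM. NRP2 had a log2 fold change of 0.04 ± 0.054 (adjusted p = 0.578) and PLXNC1 one of 0.21 ± 0.14 (adjusted p = 0.195), with overlapping groups.

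**Figure D2:**
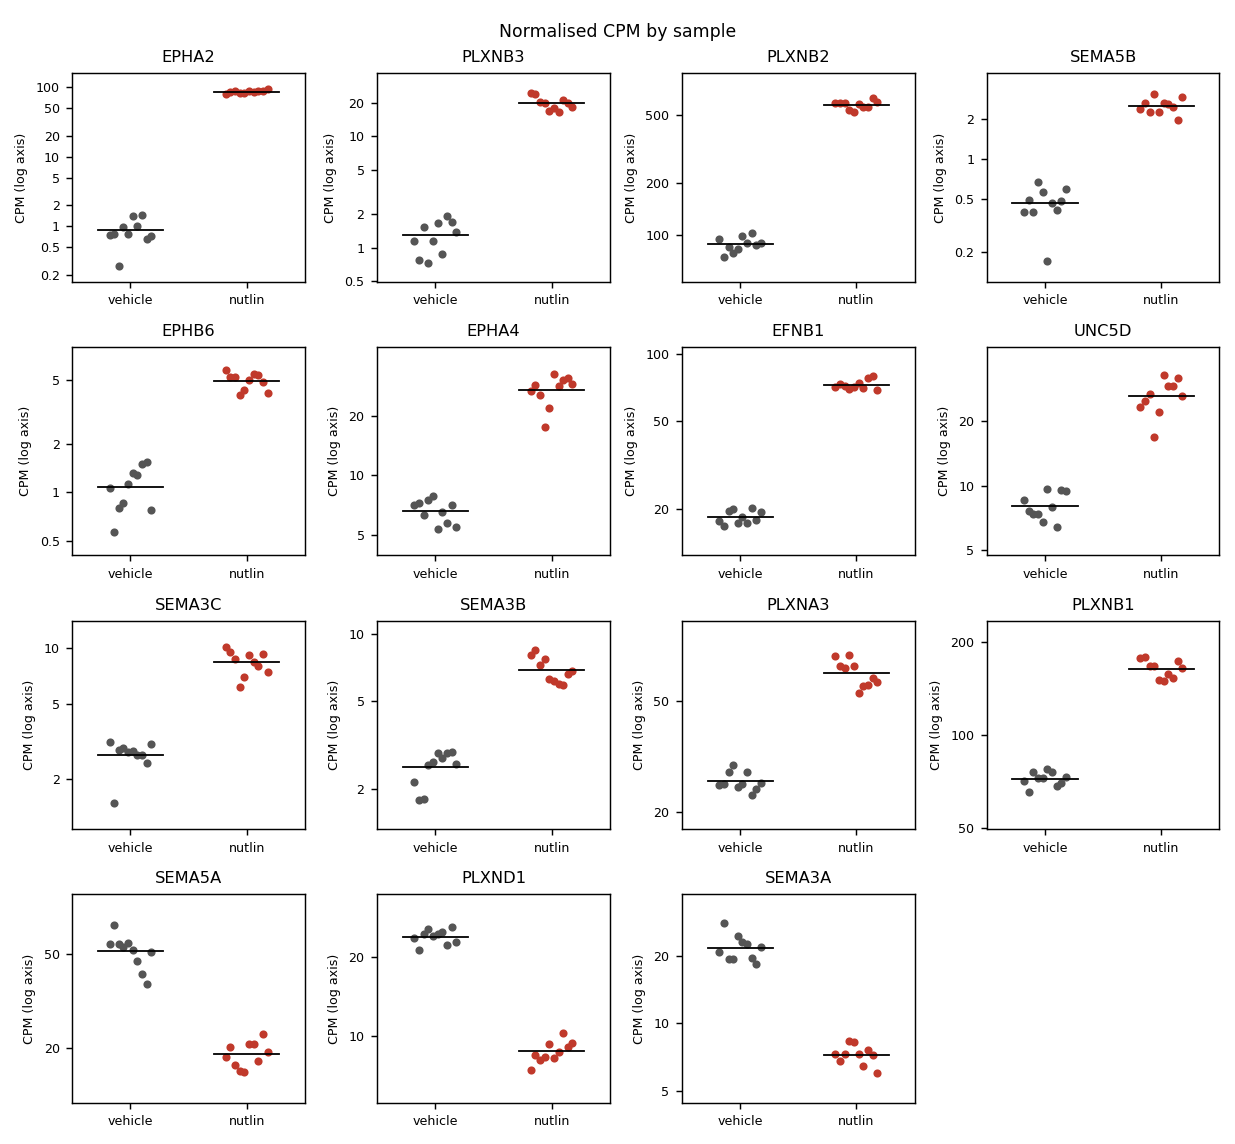
Normalised CPM in each of the 10 vehicle (grey) and 10 nutlin (red) samples is plotted on log axes for the 15 genes that passed 5% FDR with at least a 2-fold change, a mean of at least 1 CPM and no overlap; horizontal lines are group means. EPHA2 spans 0.266 to 95.1 CPM, and SEMA5A, PLXND1 and SEMA3A are the 3 genes with nutlin below vehicle.

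Semaphorins split in both directions. Of 19 tested semaphorins 10 rose, 5 fell and 4 did not pass, and 5 rose and 2 fell past 2-fold. SEMA3A, the secreted repellent that signals through NRP1, had 18.3, 21.3 and 27.8 CPM in vehicle and 5.98, 7.27 and 8.35 in nutlin. SEMA3A had a log2 fold change of -1.58 ± 0.074 (adjusted p = 1.12e-17). SEMA5A, a membrane semaphorin with thrombospondin repeats, had 37.2, 52.6 and 66.3 CPM in vehicle and 15.9, 18.8 and 23.0 in nutlin, a log2 fold change of -1.44 ± 0.081 (adjusted p = 1.02e-15). Its paralogue SEMA5B moved the other way, with 0.173, 0.477 and 0.673 CPM in vehicle and 1.97, 2.55 and 3.08 in nutlin, a log2 fold change of 2.42 ± 0.16 (adjusted p = 4.94e-14).

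The secreted class 3 genes SEMA3B, SEMA3C and SEMA3F rose. SEMA3B had 1.78, 2.61 and 2.92 CPM in vehicle and 5.87, 6.66 and 8.50 in nutlin, a log2 fold change of 1.46 ± 0.10 (adjusted p = 2.10e-13). SEMA3C had 1.49, 2.80 and 3.15 CPM in vehicle and 6.16, 8.56 and 10.2 in nutlin, a log2 fold change of 1.63 ± 0.11 (adjusted p = 3.28e-14). SEMA3F, a ligand of NRP2, was more abundant, at 19.2 ± 1.66 TPM in vehicle and 35.7 ± 3.12 in nutlin, and rose without overlap by 0.89 on the log2 scale.

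SEMA3E, the ligand of PLXND1, was not tested because it had 0 counts in all 10 vehicle samples. In nutlin 9 of 10 samples held counts, with a lowest value of 0, a median of 3.94 and a highest of 15.2 estimated counts, and a total of 56.5. Set against a floor of 3 counts over the vehicle group, and scaled to total counts, the nutlin total of SEMA3E was 21.0-fold higher. The floor allows for counting error in vehicle only, not for that in nutlin or for the spread among samples. ROBO4, an endothelial Robo, held 2 counts in vehicle and 0 in nutlin, and was not tested.

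The most abundant semaphorin in vehicle was SEMA4C, a ligand of PLXNB2, at 31.1 ± 2.65 TPM. SEMA4C had 69.9, 79.0 and 88.0 CPM in vehicle and 60.5, 67.7 and 74.7 in nutlin, a log2 fold change of -0.22 ± 0.043 (adjusted p = 4.92e-05) with overlapping groups. Its sign changed when counts of protein_coding transcripts alone were used. SEMA4B, SEMA4D, SEMA4G and SEMA6A did not pass the test and had log2 fold changes between -0.10 and 0.04.

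**Figure D3:**
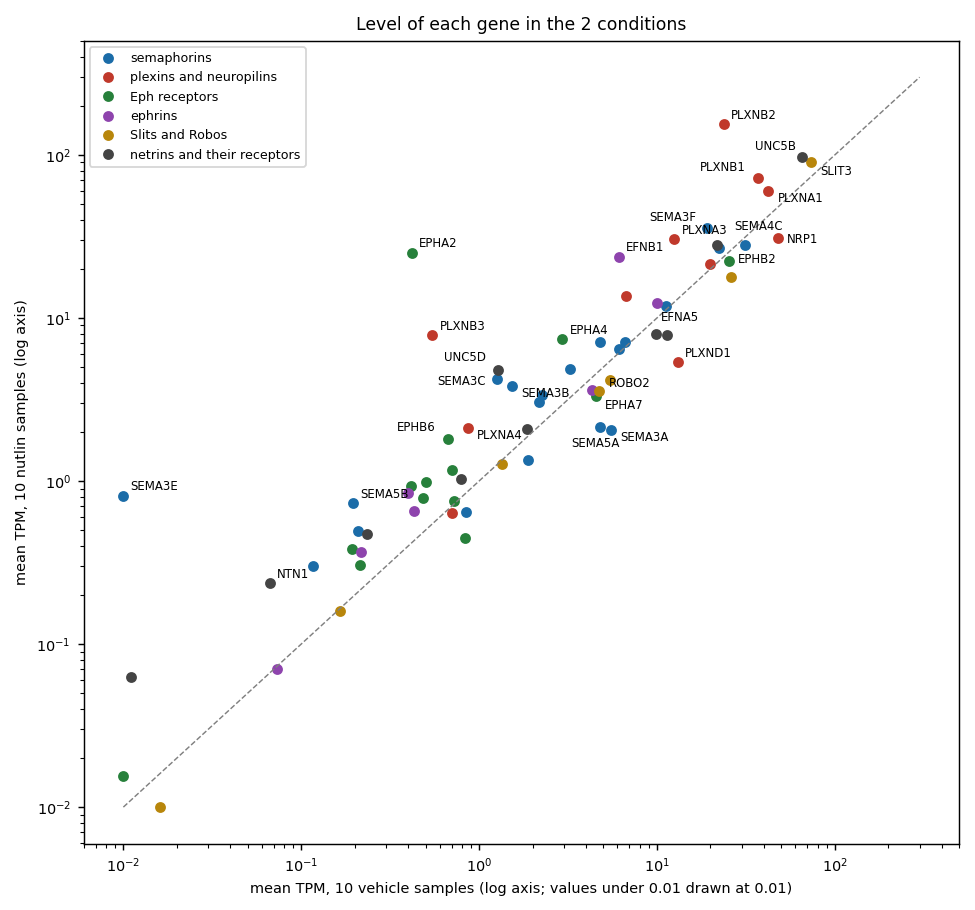
Mean TPM of each of the 69 genes in the 10 nutlin samples is plotted against its mean in the 10 vehicle samples on log axes, coloured by class, with a dashed line of equal level. PLXNB2, at 154 TPM in nutlin, and EPHA2, at 0.418 TPM in vehicle and 25.2 in nutlin, lie far above the line, and NRP1 lies below it.

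Slits and Robos changed little, and no member passed 2-fold. Of 6 tested genes 1 rose, 3 fell and 2 did not pass. SLIT3, a secreted Robo ligand and the most abundant guidance gene in vehicle at 73.3 ± 6.36 TPM, had 234, 273 and 303 CPM in vehicle and 296, 326 and 350 in nutlin. The log2 fold change was 0.26 ± 0.041 (adjusted p = 1.99e-06), and the groups overlapped slightly. ROBO2 had 14.2, 17.4 and 21.0 CPM in vehicle and 8.53, 10.5 and 12.9 in nutlin, a log2 fold change of -0.68 ± 0.073 (adjusted p = 2.12e-09). SLIT2 and ROBO1 fell by 0.54 and 0.33 on the log2 scale, and only SLIT2 of these had no overlap.

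Most netrin receptors were far more abundant than netrins. UNC5D and DCC, at 1.29 and 1.85 TPM in vehicle, were closer to NTN3, the highest netrin, at 0.794. UNC5B, a repulsive netrin receptor known as a p53 target and as a dependence receptor that triggers cell death without its ligand, had 65.3 ± 5.98 TPM in vehicle and 96.7 ± 8.09 in nutlin, while NTN1 had 0.0665 ± 0.0304 and 0.237 ± 0.0696. UNC5B had 357, 408 and 447 CPM in vehicle and 558, 626 and 643 in nutlin, a log2 fold change of 0.60 ± 0.040 (adjusted p = 6.75e-14) with no overlap. UNC5D had 6.40, 7.77 and 9.63 CPM in vehicle and 16.8, 26.5 and 32.7 in nutlin, a log2 fold change of 1.70 ± 0.099 (adjusted p = 1.97e-15). UNC5C rose by 0.40 on the log2 scale, whereas UNC5A and NEO1 fell by 0.54 and 0.37. The groups overlapped for UNC5C and UNC5A but not for NEO1.

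DCC, the attractive netrin receptor, had a log2 fold change of 0.20 ± 0.13 (adjusted p = 0.194). Among the netrins NTN1 rose by 1.85 on the log2 scale, from 0.142 to 0.604 CPM in vehicle up to 0.727 to 1.84 in nutlin, without overlap. NTN5 and NTN3 rose by 1.23 and 0.40 with overlapping groups, and NTN4 did not pass the test. Over the 10 genes of this class 6 rose, 2 fell and 2 did not pass.

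At the level of single transcripts, 160 transcripts of 49 guidance genes could be tested, and 71 rose and 21 fell, beside 25.9% and 22.9% of all 51203 transcripts tested. The transcripts named below were chosen after their values were seen, and the division of reads between transcripts of a gene is an estimate of kallisto. In UNC5B the longer transcript rose past 2-fold. UNC5B-201 had 156, 199 and 234 CPM in vehicle and 375, 422 and 474 in nutlin, a log2 fold change of 1.08 (edgeR, adjusted p = 1.86e-11). UNC5B-202 had 194, 203 and 217 CPM and then 187, 222 and 263, a log2 fold change of 0.14 (edgeR, adjusted p = 0.0229). UNC5B-201 made up 47.5% ± 3.28 (SD, n = 10) of the gene's TPM in vehicle and 63.6% ± 3.41 in nutlin.

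The coding exon that sets these UNC5B transcripts apart is exon 8 of 17, 33 bases at chr10:71288958-71288990 on the plus strand of hg38. It is shown, in lower case throughout, because it is present in the transcript that rose past 2-fold and absent from the other. UNC5B-201 also has a longer first exon, which starts further upstream, so the exon is not the whole difference.
UNC5B-201 exon 8: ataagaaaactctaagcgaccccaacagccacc

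In 5 genes, NEO1, NRP1, ROBO1, SEMA4C and SEMA6A, some transcripts rose and others fell. The ROBO1 transcripts start 748539 bases apart. ROBO1-202 had 3.34, 28.7 and 34.7 CPM in vehicle and 0, 7.09 and 11.5 in nutlin (log2 fold change -2.04, edgeR adjusted p = 0.000685). ROBO1-201 had 0, 0 and 22.7 CPM in vehicle and 3.21, 15.9 and 30.1 in nutlin (log2 fold change 2.35, edgeR adjusted p = 0.0492). Both pairs of groups overlapped, and the second p lies close to the threshold.

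In SEMA6A, whose gene total had a log2 fold change of 0.02 (adjusted p = 0.675), SEMA6A-201 rose by 1.30 (edgeR, adjusted p = 0.0114) and SEMA6A-202 fell by 0.20 on the log2 scale (adjusted p = 0.00135). In NRP1, NRP1-206 had 48.9, 67.2 and 86.1 CPM in vehicle and 0.327, 22.7 and 42.0 in nutlin, without overlap (log2 fold change -1.66, edgeR adjusted p = 0.000788). NRP1-202 and NRP1-205 rose, by 1.47 (edgeR, adjusted p = 1.43e-06) and 1.05 (adjusted p = 0.00355) on the log2 scale, at no more than 5.85 CPM in any sample. NRP1-201 did not pass the test, with a log2 fold change of 0.30 (adjusted p = 0.512). The next exons are present in ROBO1-202 and absent from ROBO1-201, and present in SEMA6A-201 and absent from SEMA6A-202, and are shown because these transcripts moved in opposite directions. They are a small part of the difference: ROBO1-202 has other first exons and some shifted exon ends, and SEMA6A-202 has a longer first exon and a longer last exon. They are exon 3 of 31 at chr3:79125456-79125539 and exon 18 of 20 at chr5:116472885-116472935, both on the minus strand of hg38. The deposited lengths of ROBO1-202, SEMA6A-202 and NRP1-206 differ from the annotation that gave the exons, so the exon structure of these 3 in the authors' index may not be the same.
ROBO1-202 exon 3: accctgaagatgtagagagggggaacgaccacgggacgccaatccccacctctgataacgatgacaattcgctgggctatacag
SEMA6A-201 exon 18: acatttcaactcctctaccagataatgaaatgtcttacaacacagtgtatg

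**Figure D4:**
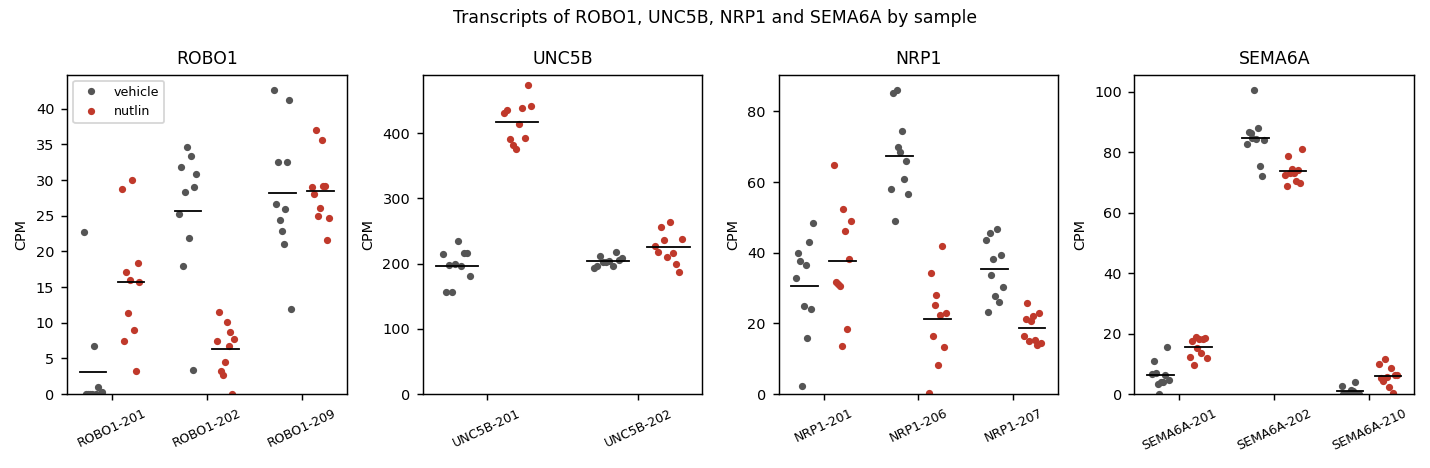
CPM of single transcripts of guidance genes is plotted for each of the 10 vehicle (grey) and 10 nutlin (red) samples, with horizontal lines at group means. UNC5B-201 lies at 375 to 474 CPM in nutlin and 156 to 234 in vehicle, while the 2 groups of UNC5B-202 overlap.

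Since nutlin acts on p53, the RefSeq promoters of the guidance genes, 250 bases before to 50 after the start, were searched on both strands for the palindromic p53 half-site. A promoter was given for 59 of the genes, and 4 of these held it (6.78%), while 775 of 13584 mRNA promoters did (5.71%). The 4 are shown with the half-site in capitals and 10 bases on each side, read along the gene's strand in hg38. SEMA5B and SEMA3F rose, and ROBO3 and NTN4 did not pass the test. The RefSeq start used for ROBO3 lies inside the annotated gene, which begins at chr11:124865432, so its match is not at the gene's first start. A match is a description of letters and not a bound site.
SEMA5B, chr3:123028657-123028686: ctaggatttgAAGCTTGCCCcttgaatctt
SEMA3F, chr3:50154850-50154879: cgaggggtgcAGACTAGTCTcccccggcgc
ROBO3, chr11:124876159-124876188: gacgggggcgGGGCAAGCCCcccactgggg
NTN4, chr12:95791217-95791246: ggaggagggaGGGCTTGTTTcgctggggga

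Genes that act with these ligands and receptors were counted in 5 lists and are read against all mRNAs, of which 32.4% rose and 38.5% fell (31.4% and 50.6% of those at 1 CPM or more). More genes fell than rose in 4 of the lists, which is also the direction of that background. Of 19 genes of semaphorin and plexin signalling 5 rose, 13 fell and 1 did not pass, with a median log2 fold change of -0.33, beside -0.01 over all mRNAs. DPYSL5 and DPYSL2, cytoplasmic collapsin response mediators that bind tubulin, fell by 1.61 and 1.20 on the log2 scale without overlap. DPYSL5 ranged from 330 to 393 CPM in vehicle and from 110 to 131 in nutlin. RRAS, a small GTPase that plexins inactivate, fell by 1.09 with overlapping groups. DPYSL4 rose by 0.67 without overlap, and RND1 and MICAL1 rose by 0.74 and 0.27 with overlapping groups. RRAS and RND1 had no more than 1.98 CPM in any sample.

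Of 15 genes of Eph and ephrin signalling 6 rose, 8 fell and 1 did not pass, with a median of -0.21, a division near that of mRNAs at 1 CPM or more. CHN1, a Rac inhibitor that acts below EPHA4, fell by 1.64 on the log2 scale, from 80.1 to 95.4 CPM in vehicle down to 24.8 to 31.3. ITSN1 and RGS3 fell by 0.98 and 0.73, and the adaptor GRB10 and the exchange factors VAV2 and KALRN rose by 1.29, 1.06 and 0.64, all 5 without overlap.

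Of 13 genes of Slit and Robo signalling 3 rose, 9 fell and 1 did not pass, with a median of -0.52. GPC1, a heparan sulphate proteoglycan that binds Slits, had 12.1 to 15.7 CPM in vehicle and 173 to 222 in nutlin, a log2 fold change of 3.90 ± 0.052 (edgeR, adjusted p = 1.43e-30). SRGAP3, a Rac GTPase-activating protein, rose by 1.85 and its relative SRGAP2 fell by 0.70, both without overlap. The actin regulators CAP2 and ENAH fell by 1.42 and 1.13, and MYO9B rose by 0.40. The groups overlapped for CAP2, at no more than 7.71 CPM in any sample, but not for ENAH or MYO9B.

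Of 15 genes of netrin signalling 5 rose, 7 fell and 3 did not pass, with a median of -0.02, which is also near the background of mRNAs at 1 CPM or more. SIAH2, a ubiquitin ligase, MAGED1, an UNC5 partner, and PITPNA, a phosphatidylinositol transfer protein, fell by 1.04, 0.89 and 0.49. ABLIM3, an actin-binding protein, rose by 2.24 at no more than 2.63 CPM in any sample, and TRIO and DAPK1, a kinase that acts in cell death below UNC5B, rose by 0.43 and 0.28.

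Among 14 other guidance cues and adhesion receptors 6 rose, 4 fell and 4 did not pass, with a median of 0.16. DRAXIN, a secreted repellent that binds DCC, had 0.284 to 1.21 CPM in vehicle and 15.9 to 21.5 in nutlin, a log2 fold change of 4.72 ± 0.12 (edgeR, adjusted p = 4.57e-24). RGMA, a ligand of NEO1, and CNTN2, an adhesion molecule of axons, rose by 2.61 and 2.51 without overlap. FLRT3, NELL2, a ligand of ROBO3, and CNTN1 fell by 1.01, 0.93 and 0.46.

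**Figure D5:**
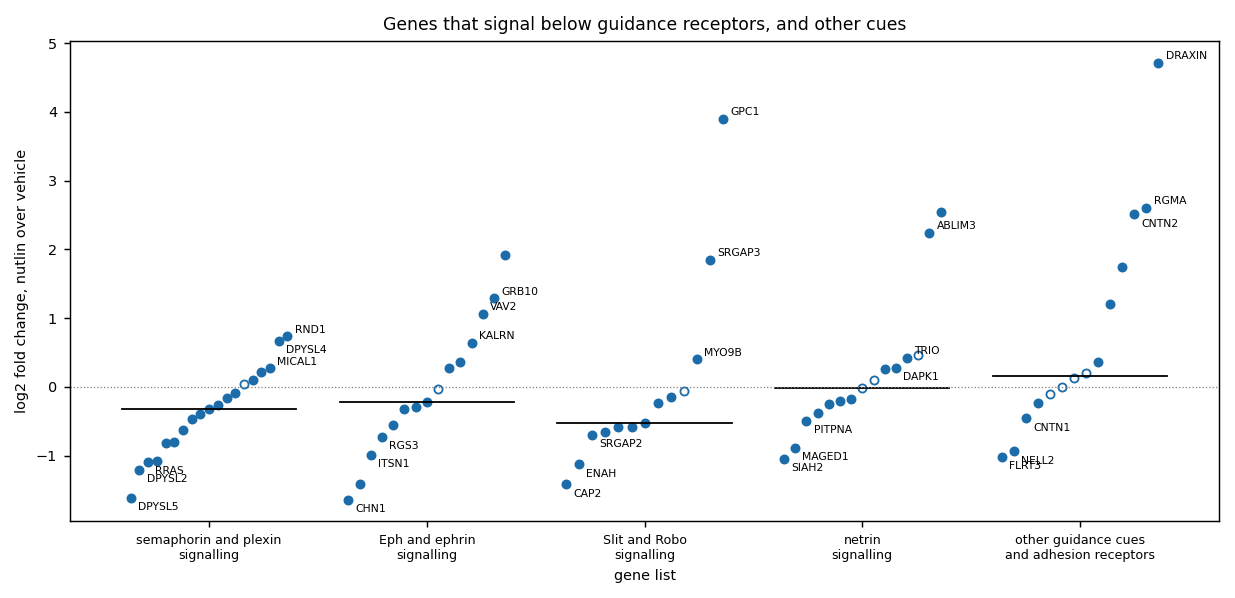
The log2 fold change (nutlin over vehicle) of each gene of the 5 lists of pathway genes is plotted by list, with the genes named in the text labelled; filled circles passed 5% FDR, open circles did not, and horizontal lines are list medians. DRAXIN at 4.72 and GPC1 at 3.90 are the highest, and CHN1 at -1.64 is the lowest.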

How the data were processed

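RNA of the 10 vehicle and 10 nutlin samples, described by the study as biological replicates, was prepared by the authors with a stranded poly(A) kit, sequenced in pairs and quantified with kallisto 0.42.4 on GRCh38 transcripts of Ensembl. The deposited files give estimated counts and TPM (scaled to length and library) for each transcript. The deposited effective length served for the length offset. Whether kallisto used strand is not stated, and 21 of the genes share exon bases with a gene on the other strand.

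Transcripts were joined to genes through GENCODE release 44 by identifier: 191106 of 198968 matched, holding at least 95.71% of the counts in every sample. Counts were summed per gene and rounded. The test covered protein-coding and lncRNA genes whose counts totalled 1 or more in both conditions. It was the edgeR 4.0.16 quasi-likelihood F-test in R 4.3.3, with TMM normalisation, condition as the only term, Benjamini-Hochberg adjustment and 5% FDR. CPM values are TMM-normalised. Transcripts needed a minimum count of 10 under filterByExpr. Scripts were tested on simulated data.

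Standard errors of log2 fold changes are the change divided by the root of the F statistic. This definition was chosen after the data were seen, in place of the spread of log2 CPM among samples (prior count 2), with which some low genes had intervals that did not match their test. The measures are close for most genes above 1 CPM, but for EPHA2 the F statistic gives 0.089 and the spread 0.18, and the larger is printed.

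Genes were named if they passed 5% FDR with a log2 change of at least 1, a mean of at least 1 CPM and no overlap, or were highest in vehicle TPM or changed most in their class. From each pathway list the 3 genes that rose most and the 3 that fell most were named, among those past 5% FDR with a mean of at least 1 CPM. The members and lists were chosen with earlier results of these data known. Alternatives were DESeq2 1.42.0 (size factors, test), limma 3.58.1 voom, other filters, a length offset, protein_coding transcripts alone, a replicate block and 1% FDR. Sequences came from hg38, GENCODE and RefSeq promoters on GRCh38.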

Additional observations from a re-analysis of the deposited data

Results flagged for a closer look

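In 3 of 44 groups of 10 samples, 1 sample stood apart from the rest by Dixon's criterion, which chance meets in about 1 of 20 groups. For EPHB2 the highest nutlin sample, replicate 4, had 126.15 CPM, and the next had 114. For EFNA5 the lowest vehicle sample, replicate 12, had 27.852 CPM, and the next had 34.1. For SEMA3C the lowest vehicle sample, replicate 4, had 1.4915 CPM, and the next had 2.44.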

How the results depend on the processing

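Counts of guidance genes that rose or fell, and of pathway genes, stayed within 1.5 times their value under every alternative: 31 to 39 guidance genes rose, against 36. Of the values of the 24 single genes under the alternatives, 210 kept their direction and side of the threshold. The log2 fold change of EPHB2 was -0.06 (adjusted p = 0.0944) with the filterByExpr filter and 0.019 with protein_coding transcripts alone. That of SEMA4C was 0.028 with protein_coding transcripts. That of EFNA5 was 0.0027 with the filterByExpr filter, 0.30 with the length offset (edgeR, adjusted p = 0.00694) and 0.054 with protein_coding transcripts. The cause was not tested. The median log2 fold change of all mRNAs was -0.01, and 0.10 with protein_coding transcripts.

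Replicate numbers are shared by 8 pairs of samples. Deviations of same-numbered samples correlated between -0.0444 and 0.0797, no pair exceeded 0.1, and 0 samples correlated best with their own number. They were not treated as pairs, but these correlations cannot tell whether same-numbered cultures were handled together. With the replicate block 33 guidance genes rose and 16 fell, and without it in the same 16 samples 33 and 16. Genes under 1 CPM rest on few counts, and 29 of 69 guidance genes were under 1 TPM in vehicle. P-values measure the spread among cultures of 1 line.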
